A study of Mus musculus with 28 samples.

Results

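Intrinsic primary afferent neurons are the sensory neurons whose cell bodies lie inside the gut wall. Transcripts of 9 genes that mark them were followed in sorted enteric nuclei: Nmu, Calca, Calcb, Grp, Cck, Cbln2, Nog, Calb1 and Calb2. The genes were chosen by name as known markers and found in the count table by their gene identifiers, which makes 9 of 51912 genes, all with a row of their own. No measured value entered the rule of choice, but earlier results of these data were known when the genes were listed.

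These neurons respond to stretch and to chemical signals from the mucosa and start the local reflexes of the bowel. In the mouse myenteric plexus, the layer of ganglia between the muscle sheets, they are usually told from motor neurons and interneurons by shape, by electrical type and by a set of peptides and calcium-binding proteins. Single markers of the set are shared with other enteric neurons, and several are also made by cells outside the nervous system, such as enteroendocrine cells for Cck and mesothelium for Calb2.

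The study asked how gene expression in enteric neurons depends on the gut segment and on the microbiota. C57BL/6 mice, either germ-free (GF) or specific pathogen-free (SPF), received AAV9-CaMKII-EGFPKASH into a vein, and tissue was taken 5 weeks later. The virus carries a green fluorescent protein anchored in the nuclear envelope, under the CaMKII promoter. Nuclei from the outer muscle and myenteric plexus of colon or small intestine were sorted into EGFP+ nuclei, called neuronal, and EGFP- nuclei, called non-neuronal, and their RNA was sequenced. Each of the 4 SPF groups (colon or small intestine, neuronal or non-neuronal) has 4 libraries, and each of the 4 matching GF groups has 3. All 8 groups come from injected mice, so none is free of the virus. The neuronal fraction holds only nuclei that took up the virus and drove its promoter, and unlabelled neurons would fall into the other fraction. Neither age nor sex is in the labels, and the labels do not say which libraries share a mouse, so p-values measure the spread between libraries, which may be technical in part.

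Library totals ran from 2394517 to 7321922 counts. Levels are given in CPM, counts scaled to the library total. A floor of 3 counts, the most that a count of 0 allows, stands at 0.41 to 1.25 CPM depending on the library. This floor, and every interval below, covers counting error only, since reads carried no molecular identifiers. The neuronal label held against 10 pan-neuronal genes (such as Elavl4, Prph and Uchl1), whose summed level was 3730 to 5892 CPM in the 14 neuronal libraries. In the non-neuronal libraries it was 782 to 1764 CPM in SPF colon and 814 to 1287 CPM in GF colon, against 35.1 to 691 CPM in SPF small intestine and 43.7 to 195 CPM in GF small intestine. Colonic non-neuronal libraries thus held neuronal transcripts throughout. The first SPF small intestinal non-neuronal library, at 691 CPM, stood apart from the other 3 of its group, which held 35.1 to 73.4 CPM.

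Most members were rare. Of the 9, Calcb and Calb2 had counts in all 14 neuronal libraries, Grp in 13, Cbln2 in 11, Calb1 in 10 and Nmu in 8. Cck had counts in 6 and Calca in 2, and Nog had none. In the non-neuronal libraries the order was different: Nmu had counts in 12 of 14, Cbln2 in 9, Grp and Calb2 in 8, Calcb in 7, Nog in 3, Calca and Cck in 2, and Calb1 in none. Per kilobase of exon, which allows levels to be compared between genes, mean neuronal levels were 8.67 CPM per kb for both Calcb and Grp and 8.43 for Calb2. They were 4.31 for Cbln2, 3.21 for Nmu, 0.581 for Calb1, 0.203 for Cck and 0.0219 for Calca. The first 3 cannot be ordered: their library values ranged over 0.267 to 22.3, 0 to 44.7 and 0.282 to 26.6 CPM per kb. In bulk nuclei, fewer nuclei of a type and less RNA per nucleus cannot be told apart.

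**Figure D1:**
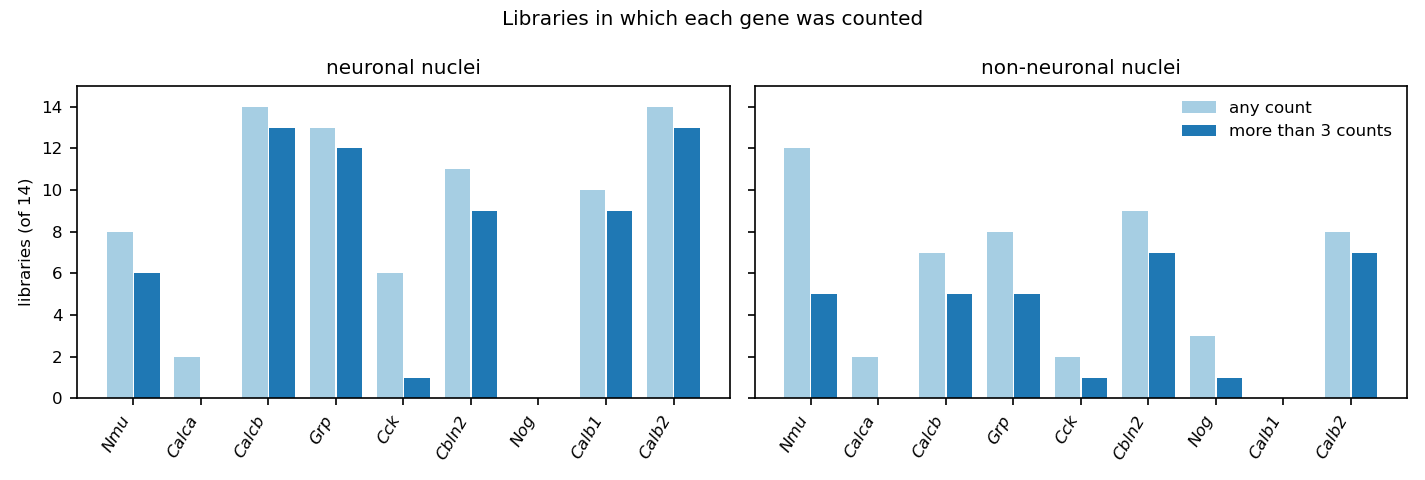
Number of libraries, of 14 in each sorted fraction, in which each of the 9 genes had any count (light bars) or more than 3 counts (dark bars). Calcb and Calb2 had counts in all 14 neuronal libraries, Nog had none there, and Calb1 had none in the non-neuronal libraries.

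Calca and Calcb both encode calcitonin gene-related peptide, in forms that differ in a few residues, and their messages are close enough that short reads could be shared between them. A read-sized stretch of the coding sequence of each is shown because it is the closest match and bears on whether their counts can be separated. It covers coding bases 230 to 304 of Calcb and 227 to 301 of Calca, counted from the start codon, from GENCODE M21 transcripts on GRCm38. Capitals mark the bases that differ.

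Calcb: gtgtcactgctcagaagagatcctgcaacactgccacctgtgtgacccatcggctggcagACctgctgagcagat

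Calca: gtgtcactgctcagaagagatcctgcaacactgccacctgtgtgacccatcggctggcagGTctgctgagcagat

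Even this closest pair differed at 2 bases. Among the 1260 windows of 75 bases (the read length) in Calcb transcripts, 0 matched Calca exactly, 13 (1.03%) came within 2 mismatches and 113 (8.97%) within 8. An error-free read of Calcb would therefore not match Calca over its full length. Other close relatives were farther apart: the fewest mismatches over such a window were 9 between Cbln2 and Cbln1, 15 between Calb1 and Calb2, 30 between Grp and Nmb and between Cck and Gast, and 33 between Nmu and Nms.

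Among the peptides, Nmu encodes neuromedin U, which acts on smooth muscle and on immune cells of the gut. The gene lies on chromosome 5 of GRCm38 at 76333495 to 76363788, and its exons share 55 bases (6.64% of its exonic length) with 4930432L08Rik on the opposite strand. In SPF colonic neuronal libraries Nmu stood at 4.96, 1.89, 0 and 17.8 CPM, and in SPF small intestinal ones at 0.502, 3.71, 2.09 and 0.246 CPM. All 3 GF colonic neuronal libraries held 0 counts, and 1 of the 3 GF small intestinal ones held 28 counts (6.00 CPM) while the others held 0. Nmu was thus in no group of neuronal nuclei a steady transcript: 64 of its 136 neuronal counts came from 1 SPF colonic library.

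Any count of Nmu was found in 12 of 14 non-neuronal and 8 of 14 neuronal libraries, and more than 3 counts in 5 and 6 of them. The non-neuronal levels were 1.17, 24.9, 0.261 and 0.504 CPM in SPF colon and 0, 0.949, 10.0 and 0.226 CPM in SPF small intestine. They were 9.30, 12.3 and 5.19 CPM in GF colon and 0, 0.509 and 0.137 CPM in GF small intestine. GF colon was the only group in which every library of one fraction lay above every library of the other, with a mean of 8.93 ± 3.57 CPM (SD, n = 3) in non-neuronal nuclei against 0 counts in neuronal nuclei, at least 8.84-fold higher. The overlapping gene 4930432L08Rik was itself highest there, at 25.6, 1.72 and 30.3 CPM, and did not exceed 5.41 CPM in any library of the other 7 groups. Strand use in the counting is not given in the sources used, and the part of the shared stretch in the Nmu values was not tested.

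Calca, on chromosome 7 at 114631478 to 114636357, makes calcitonin as well as alpha-CGRP. It had a single count in 2 of the 14 neuronal libraries and 0 in the other 12. In the non-neuronal libraries 2 held counts, 3 counts at most, in SPF and GF colon, and it did not pass the filter on low counts in any fit. At this depth Calca was not detectable above the floor in either fraction.

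Calcb, which makes beta-CGRP, lies close by on chromosome 7 at 114718643 to 114723365. Its neuronal levels were 15.7, 3.79, 28.2 and 12.3 CPM in SPF colon and 9.54, 8.73, 5.43 and 16.5 CPM in SPF small intestine. The GF values were 5.31, 0.337 and 16.2 CPM in colon and 22.4, 3.43 and 5.68 CPM in small intestine. The 4 groups of neuronal libraries overlapped one another, and Calcb was the most even of the members found in neuronal nuclei, with a coefficient of variation of 0.728 over the 14 libraries, against 0.331 for Prph, the abundant neuronal filament gene peripherin.

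Non-neuronal levels of Calcb overlapped between the segments. Small intestinal libraries held 0, 0, 0.278 and 0 CPM in SPF mice and 0, 2.54 and 0 CPM in GF mice. Colonic ones held 18.7, 0, 0.783 and 8.56 CPM in SPF mice and 15.2, 8.58 and 0 CPM in GF mice, so some colonic non-neuronal libraries reached neuronal levels and others held none.

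Grp encodes gastrin-releasing peptide, a bombesin-like transmitter of enteric neurons. It stood at 22.3, 17.1, 18.2 and 66.0 CPM in the SPF colonic neuronal libraries. In the other neuronal groups it was 0.753, 9.39, 5.43 and 4.43 CPM (SPF small intestine), 12.2, 0 and 1.48 CPM (GF colon) and 6.17, 9.21 and 6.68 CPM (GF small intestine). Every SPF colonic neuronal library was therefore above every other neuronal library, and replicate 4, with 66.0 CPM, lay well above the other 3.

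Non-neuronal Grp did not overlap between the segments in SPF mice and did in GF mice. SPF colon gave 11.3, 3.25, 1.31 and 0.252 CPM and GF colon 9.30, 29.8 and 0.399 CPM. All 4 SPF small intestinal libraries held 0 counts, and the GF ones held 0, 0.509 and 0 CPM.

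Cck encodes cholecystokinin, a peptide of some enteric neurons and of the I cells of the small intestinal epithelium. It lies on chromosome 9 at 121489824 to 121495694. The 14 neuronal libraries held 15 counts of it in all, 8 of them held 0, and the highest, an SPF small intestinal one, held 6 counts (1.31 CPM). In the non-neuronal libraries Cck came down to 1 library, the second of GF colon, with 41 counts (11.7 CPM). A GF small intestinal library held 2 counts and the other 12 held 0. Cck passed the filter in no fit, so it has no fitted fold change.

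Cbln2 encodes cerebellin 2, a secreted protein that bridges presynaptic neurexins and postsynaptic delta receptors. Its neuronal levels were the most uneven of the 9 apart from Calca, with a coefficient of variation of 2.08 over the 14 libraries. SPF colon gave 92.1, 0.812, 0 and 46.5 CPM, while SPF small intestine gave 2.76, 3.71, 2.51 and 3.69 CPM. GF colon gave 2.66, 0.337 and 0 CPM and GF small intestine 13.0, 6.64 and 0 CPM. SPF colonic replicates 1 and 4 were thus far above every other neuronal library, and the other pair of the same group were near or below the floor.

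Cbln2 was also present in non-neuronal nuclei. The levels were 0.781, 0.866, 4.96 and 0.252 CPM in SPF colon, 15.9, 0, 4.45 and 0 CPM in SPF small intestine, 1.81, 20.9 and 0 CPM in GF colon and 0, 2.04 and 0 CPM in GF small intestine. The 15.9 CPM came from the small intestinal library with the high pan-neuronal level. Both fractions overlapped in each segment and microbiota state.

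Nog encodes noggin, a secreted antagonist of bone morphogenetic proteins, and lies on chromosome 11 at 89300638 to 89302332. It had 0 counts in all 14 neuronal libraries. Among non-neuronal libraries, the first of SPF small intestine held 12 counts (3.88 CPM), the first of SPF colon and the second of GF small intestine held 2 each, and the other 11 held 0. Nog is a gene listed at 0 in this neuronal fraction at a floor of 0.41 to 1.25 CPM per library.

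Calb1 encodes calbindin and Calb2 encodes calretinin, a pair of calcium-binding proteins long used to stain enteric neurons. Calb1 lies on chromosome 4 at 15881264 to 15908064 and had 0 counts in every one of the 14 non-neuronal libraries. In neuronal libraries it stood at 0.826, 0, 4.10 and 1.11 CPM in SPF colon, 2.51, 1.53, 5.85 and 0.984 CPM in SPF small intestine, 1.86, 5.05 and 0 CPM in GF colon and 15.6, 0 and 0 CPM in GF small intestine. It was thus the one member seen in neuronal nuclei alone, but at a low level: 127 counts in all, 48 of them in 1 GF small intestinal library.

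Calb2 lies on chromosome 8 at 110137502 to 110168210. Its neuronal levels were 42.5, 7.58, 21.3 and 16.2 CPM in SPF colon and 12.1, 18.1, 4.18 and 0.492 CPM in SPF small intestine. They were 13.8, 3.03 and 46.3 CPM in GF colon and 4.55, 6.21 and 9.35 CPM in GF small intestine. The groups overlapped, with 0.492 to 46.3 CPM over the 14 libraries.

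Non-neuronal Calb2 was 6.24, 1.3, 10.7 and 1.01 CPM in SPF colon and 8.39, 4.58 and 0 CPM in GF colon. In small intestine it was 2.27, 0, 0 and 0 CPM in SPF and 0.218, 0 and 0 CPM in GF mice. Calretinin is also a mesothelial protein. The summed level of 4 mesothelial markers (Msln, Upk3b, Lrrn4 and Wt1) was 94.0 to 193 CPM in the GF small intestinal non-neuronal libraries, where Calb2 was at or near 0. It was 61.2 to 65.8 CPM in GF colon and at most 136 CPM in SPF colon. In SPF small intestine it was 51.9 to 120 CPM, with the 120 CPM in the first library, the only one of its group with counts of Calb2. The same sum did not exceed 5.84 CPM in any neuronal library. The part of mesothelial nuclei in non-neuronal Calb2 was not tested.

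**Figure D2:**
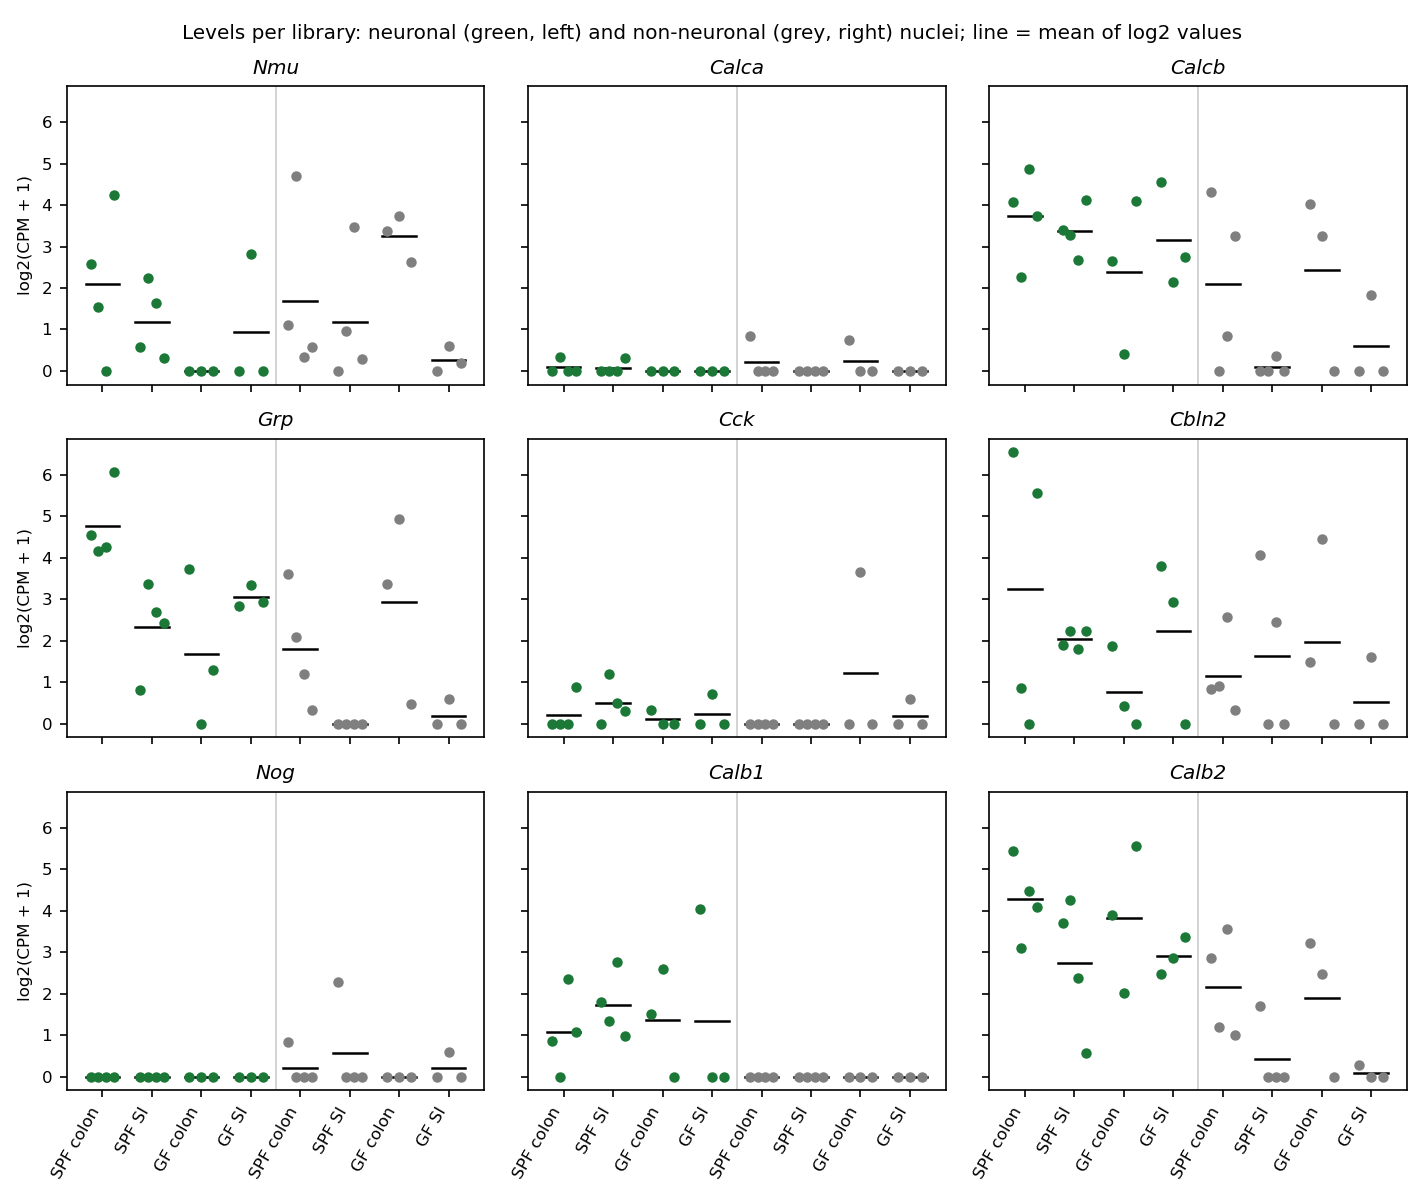
Level of each gene in every library, as log2(CPM + 1), with neuronal groups left of the grey line (green) and non-neuronal groups right of it (grey); points are libraries, black lines the mean of the log2 values, and SI is small intestine. Calca, Cck and Nog lie at or near 0 in the neuronal groups, Calb1 is at 0 in all 14 non-neuronal libraries, and Grp is highest in the 4 SPF colonic neuronal libraries.

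Neuronal and non-neuronal nuclei were compared first, within each segment and microbiota state, with the quasi-likelihood test of edgeR on all 28 libraries and 20964 genes. The threshold for a call was a p of 0.05 after Benjamini-Hochberg adjustment over all genes tested. Of the 9 members, 6 passed the filter on low counts: Nmu, Calcb, Grp, Cbln2, Calb1 and Calb2. Calca, Cck and Nog did not and have no fitted values. A member that passes only through the fraction in which it is high is set to differ in level, whether called or not, so the counts below describe these 6 only. The fractions also differed in the share of counts from mitochondrially encoded genes. It was 0.423% to 0.598% in neuronal against 3.49% to 7.44% in non-neuronal libraries of SPF colon, and 0.867% to 1.06% against 4.64% to 10.8% in GF colon. In small intestine it was 2.75% to 6.82% against 11.1% to 12.9% in SPF and 3.47% to 6.08% against 13.4% to 35.6% in GF mice. The part of this share in the fraction comparisons was not tested.

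In SPF small intestine 2 of the 6, Grp and Calcb, were called higher in neuronal nuclei, where 15.1% of all tested genes were called. Grp averaged 5.00 ± 3.55 CPM (SD, n = 4) against 0 counts in the 4 non-neuronal libraries, at least 5.15-fold higher, with a fitted log2 fold change of 7.21 (SE 1.94, adjusted p = 0.0092 in edgeR). Calcb averaged 10.0 ± 4.64 CPM against 0.0696 ± 0.139 CPM, or 158 counts against 1, a ratio of 150 with a 95% counting interval of 26.5 to 5965. Its fitted log2 fold change was 6.58 (SE 1.91, adjusted p = 0.015 in edgeR).

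Both genes were higher in 4 of 4 neuronal libraries than in any non-neuronal one. For Grp, however, the first neuronal library held only 3 counts (0.753 CPM), which is the floor. Grp and Calcb kept the call under each of the 14 alternatives run, with adjusted p from 0.00087 to 0.026 for Grp and from 0.0010 to 0.044 for Calcb. Calb1 did not overlap between the fractions either, at least 2.80-fold higher in neuronal nuclei, and missed the threshold (edgeR adjusted p = 0.075). Calb2 was 15.4-fold higher by mean level, 8.71 ± 7.91 against 0.566 ± 1.13 CPM (edgeR adjusted p = 0.085), and passed with DESeq2 (adjusted p = 0.024), which called 3 members in all, and without the first non-neuronal library, which stood apart by its pan-neuronal level (log2 fold change 7.99, edgeR adjusted p = 0.0086). Nmu and Cbln2 had lower means in neuronal than in non-neuronal nuclei there, 1.64 ± 1.60 against 2.80 ± 4.83 CPM and 3.17 ± 0.624 against 5.08 ± 7.49 CPM, well within the spread.

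In SPF colon 0 of the 6 members were called by edgeR, against 10.8% of all tested genes; 3 had an unadjusted p below 0.05, and DESeq2 called 0. Those 3 were Calb1, Cbln2 and Grp, all with higher neuronal means. Grp stood at 30.9 ± 23.5 CPM (SD, n = 4) against 4.03 ± 5.01 CPM, 7.67-fold apart and without overlap between the libraries, with a log2 fold change of 2.94 (SE 1.41, adjusted p = 0.18 in edgeR). Cbln2 stood at 34.9 ± 43.9 against 1.71 ± 2.18 CPM, a ratio of 20.3 that rests on the 2 high neuronal libraries (log2 fold change 4.23, SE 1.88, adjusted p = 0.14 in edgeR). Calcb was 2.13-fold and Calb2 4.55-fold higher by mean level, both with overlapping libraries, while Nmu had near-equal means of 6.17 ± 8.04 and 6.71 ± 12.1 CPM.

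In GF colon 0 of the 6 were called by edgeR, against 7.17% of all tested genes, with 2 at an unadjusted p below 0.05 and 1 called by DESeq2. The latter was Nmu, lower in neuronal nuclei (edgeR log2 fold change -7.95, SE 2.78, adjusted p = 0.074, and DESeq2 adjusted p = 0.015). Calb1 was the other, at least 1.92-fold higher in neuronal nuclei (edgeR adjusted p = 0.17). Calcb was as high in non-neuronal as in neuronal libraries, 7.93 ± 7.62 against 7.29 ± 8.13 CPM (SD, n = 3), and Grp and Cbln2 had higher non-neuronal means, 13.2 ± 15.1 against 4.57 ± 6.67 CPM and 7.57 ± 11.6 against 0.998 ± 1.45 CPM.

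In GF small intestine 0 of the 6 were called by edgeR, against 10.9% of all tested genes, with 3 at an unadjusted p below 0.05 and 2 called by DESeq2. These were Calb2 and Grp. Calb2 stood at 6.70 ± 2.44 CPM (SD, n = 3) or 99 counts against 1 count, a ratio of 114 with a 95% counting interval of 20.02 to 4553 (log2 fold change 5.55, SE 1.98, adjusted p = 0.064 in edgeR, DESeq2 adjusted p = 0.0092). Grp stood at 7.35 ± 1.63 CPM or 102 counts against 2, a ratio of 58.8 (15.9 to 492; log2 fold change 5.03, SE 1.88, adjusted p = 0.079 in edgeR, DESeq2 adjusted p = 0.018).

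Calb2, Grp and Calcb were each higher in all 3 neuronal libraries than in the 3 non-neuronal ones of GF small intestine, though edgeR called 0 of them. The share of all tested genes whose libraries separate likewise was not counted, here or in the other comparisons. Calcb was 12.4-fold higher by mean level. Calb1, at an unadjusted p below 0.05, rested on a single library with 48 counts: without it both groups held 0 counts.

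**Figure D3:**
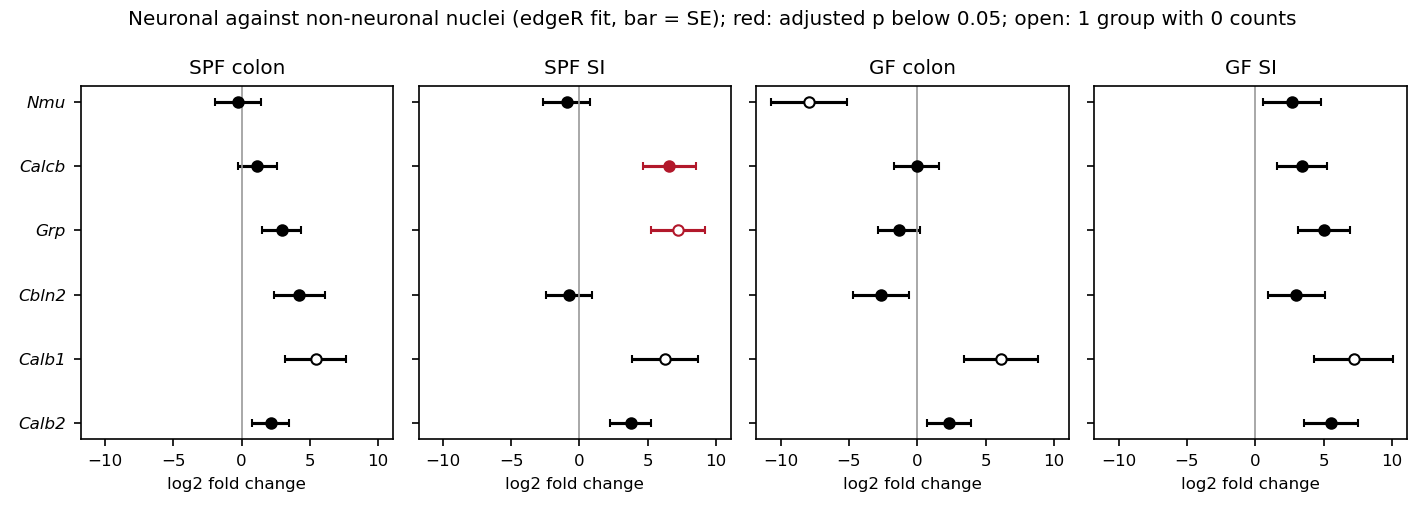
Fitted log2 fold change of neuronal over non-neuronal nuclei for the 6 tested members in each segment and microbiota state (points, with bars for the SE); red marks an adjusted p below 0.05 and open points a comparison in which 1 group held 0 counts, where the fitted size depends on the prior count. Grp and Calcb in SPF small intestine (7.21 and 6.58) are red, and Nmu in GF colon (-7.95) is the point farthest below 0.

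Whether the difference between fractions itself depended on the segment was tested as an interaction. In SPF mice 0 of the 6 were called by edgeR, against 0.892% of all tested genes, with 2 at an unadjusted p below 0.05 and 0 called by DESeq2. These were Calcb (-5.42, SE 2.26, adjusted p = 0.24 in edgeR) and Grp (-4.27, SE 2.07, adjusted p = 0.34 in edgeR), where a negative log2 value means a smaller neuronal excess in colon. In GF mice 0 of the 6 were called, against 0.21% of all tested genes, with 2 at an unadjusted p below 0.05 and 0 called by DESeq2: Nmu (-10.63, SE 3.48, adjusted p = 0.21 in edgeR) and Grp (-6.40, SE 2.40, adjusted p = 0.29 in edgeR). A larger neuronal excess of members in small intestine than in colon was thus not established by these tests.

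The pan-neuronal level was set beside these values in each segment. The 10 pan-neuronal genes were called higher in neuronal nuclei for 10 of 10 in SPF small intestine and 9 of 10 in GF small intestine, against 4 of 10 in SPF colon and 3 of 10 in GF colon. Of all tested genes, 15.1%, 10.9%, 10.8% and 7.17% were called in these comparisons, in either direction. The sum of Calcb, Grp and Calb2, the 3 members highest per kilobase in neuronal nuclei, was 0 to 2.27 CPM in the SPF small intestinal non-neuronal libraries and 0 to 3.05 CPM in the GF ones. In colonic non-neuronal libraries it was 4.55 to 36.3 CPM in SPF and 0.399 to 42.9 CPM in GF mice, against 28.4 to 94.4 and 3.37 to 64.0 CPM in the neuronal libraries of the same groups. The 2 small intestinal non-neuronal libraries with the highest sums of these 3 members were the 2 with the highest pan-neuronal levels of their segment. They ranked in reverse, with 2.27 CPM of the members at 691 CPM and 3.05 CPM at 195 CPM. Within colon the levels did not rank alike. The third GF library held 814 CPM of pan-neuronal transcripts and 0.399 CPM of the 3 members. The second SPF one held 1481 and 4.55 CPM, the lowest sum of the 3 members in its group. The part of unlabelled neuronal nuclei in these values was not tested.

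**Figure D4:**
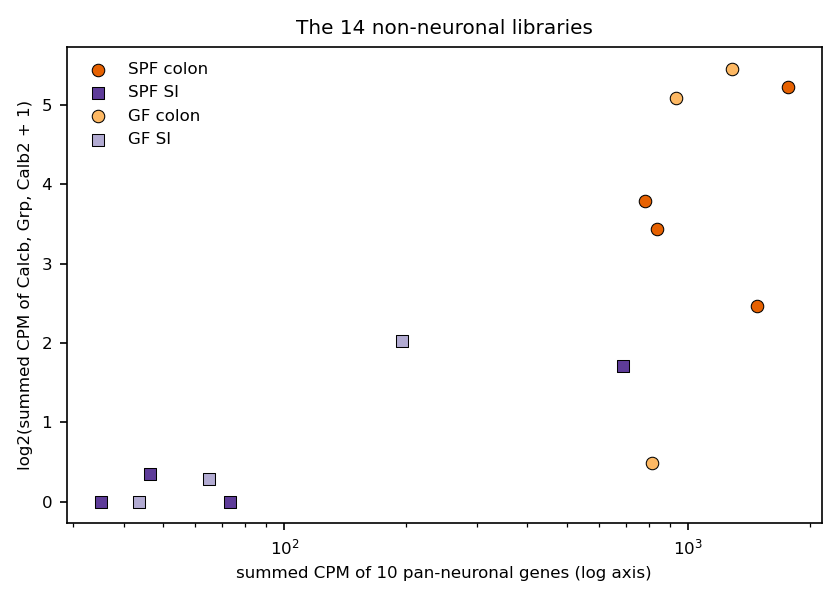
Summed level of 10 pan-neuronal genes (log axis, CPM) against the summed level of Calcb, Grp and Calb2, as log2(CPM + 1), in the 14 non-neuronal libraries; circles are colon and squares small intestine (SI). Colonic libraries lie at 782 to 1764 CPM of pan-neuronal transcripts, and 6 of the 7 small intestinal ones at 35.1 to 195 CPM.

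Enteroendocrine markers were given beside Cck and Nmu, since such cells make gut peptides too. Over the list of 7 the summed level was 44.9 to 191 CPM in neuronal libraries, 50.4 to 124 CPM in colonic non-neuronal ones and 0.557 to 65.9 CPM in small intestinal non-neuronal ones. Pyy and Neurod1 were at 0 in every neuronal library (Neurod1 had 12 counts, or 3.80 CPM, in the second SPF small intestinal non-neuronal library, 1 count in the third SPF colonic one and 0 in the others), Gcg and Nts did not exceed 0.256 and 0.167 CPM in any of them, and Sct did not exceed 1.62 CPM. In non-neuronal libraries Pyy, Gcg, Nts and Sct were found in colon: mean levels in GF colon were 19.8 CPM for Pyy, 11.4 for Gcg, 11.9 for Nts and 8.78 for Sct, and in SPF colon 7.90, 1.86, 8.81 and 1.74 CPM. The GF colonic library with 11.7 CPM of Cck held 13.2 CPM of Gcg and 14.3 CPM of Nts. It also had the highest pan-neuronal sum of its group, 1287 CPM, with 29.8 CPM of Grp and 20.9 CPM of Cbln2. The sum over the 7 in that library was 88.1 CPM, against 89.1 and 78.6 CPM in the other GF colonic non-neuronal libraries, which had 0 counts of Cck. Chga and Chgb, which lead the neuronal sum, are also expressed by neurons and stood at 52.5 to 94.1 and 23.1 to 76.9 CPM as neuronal group means. The parts of enteroendocrine and of neuronal nuclei in the non-neuronal Cck and Nmu values were not tested.

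Colon and small intestine were then compared within the neuronal fraction, on its 14 libraries and 17298 genes. In SPF mice 0 of the 6 tested members were called by edgeR, against 0.653% of all tested genes, with 2 at an unadjusted p below 0.05 and 0 called by DESeq2. Grp had a colonic mean of 30.9 ± 23.5 CPM (SD, n = 4) against 5.00 ± 3.55 CPM, 6.18-fold apart, and the libraries did not overlap (log2 fold change 2.48, SE 1.06, adjusted p = 0.39 in edgeR). Cbln2 was 11.0-fold higher in colon by mean level, 34.9 ± 43.9 against 3.17 ± 0.624 CPM, with overlapping libraries (log2 fold change 3.28, SE 1.45, adjusted p = 0.41 in edgeR). Without the first SPF colonic neuronal library the fitted value of Cbln2 was 2.12, and without replicate 4 that of Grp was 1.81.

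The other members did not separate the segments in SPF neuronal nuclei. Nmu was 3.77-fold, Calb2 2.51-fold and Calcb 1.49-fold higher in colon by mean level, and Calb1 1.80-fold higher in small intestine, all with overlapping libraries and an unadjusted p above 0.05.

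In GF mice 0 of the 6 were called by edgeR between the neuronal segments, against 0.301% of all tested genes, with 1 at an unadjusted p below 0.05 and 0 called by DESeq2. That gene was Nmu, with 0 counts in colon and 28 counts in small intestine, all from 1 library. Grp leaned the other way than in SPF mice, 4.57 ± 6.67 CPM (SD, n = 3) in colon against 7.35 ± 1.63 CPM in small intestine, as did Cbln2, 0.998 ± 1.45 against 6.54 ± 6.50 CPM. Libraries of both genes overlapped. With both microbiota states averaged, 0 of the 6 were called by edgeR, against 2.38% of all tested genes, with 0 at an unadjusted p below 0.05 and 0 called by DESeq2.

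Markers of interstitial cells of Cajal, the pacemaker cells of gut muscle, differed between these segments. The summed level of Kit, Ano1 and Etv1 was 346 to 504 CPM in SPF and 299 to 442 CPM in GF colonic neuronal libraries. In small intestinal ones it was 659 to 2024 and 447 to 655 CPM. Between fractions the 3 genes did not move together, so this sum is no measure of interstitial nuclei alone. Etv1 was called higher by edgeR in neuronal nuclei of SPF colon and of both small intestines. Kit and Ano1 were called lower in those of SPF colon, and Ano1 in those of GF colon. Ano1, which encodes a chloride channel, was lower in colon in both SPF (0.579 against 247 CPM; edgeR log2 fold change -8.80, adjusted p = 5.0e-06) and GF mice (0.734 against 51.2 CPM; edgeR log2 fold change -6.12, adjusted p = 0.0022). The first SPF small intestinal neuronal library stood apart from the other 3 of its group, with 2024 CPM in sum and 679 CPM of Ano1. Without it the SPF segment values were 2.13 for Grp and 3.21 for Cbln2 (both edgeR adjusted p = 0.59). The part of interstitial nuclei in the other libraries was not tested.

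The effect of the microbiota was asked of neuronal nuclei within each segment. In colon edgeR called 0 members and 0 genes of 17298 (0%), with 3 members and 1599 genes at an unadjusted p below 0.05, while DESeq2 called 138 genes and 0 members. The 3 members were Nmu, Cbln2 and Grp, all with higher SPF means. Grp, at 30.9 ± 23.5 CPM (SD, n = 4) in SPF against 4.57 ± 6.67 CPM (n = 3) in GF mice, was 6.77-fold higher without overlap (log2 fold change 2.59, SE 1.19, adjusted p = 0.51 in edgeR). The fitted value of Grp was 5.18 without the first GF library and 1.91 without SPF replicate 4.

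For Nmu the 83 counts of SPF colon stood against 0 in GF colon, at least 6.10-fold higher (edgeR adjusted p = 0.43), although 1 SPF library also held 0 and replicate 4 held 64 of the 83. Without replicate 4 the bound was 2.26-fold. For Cbln2 the means were 34.9 ± 43.9 and 0.998 ± 1.45 CPM, 34.9-fold apart, with overlapping libraries (log2 fold change 4.91, SE 1.80, adjusted p = 0.43 in edgeR). The fitted value of Cbln2 was 7.37 without the first GF library and 3.75 without the first SPF one. Calb2 had near-equal means, 21.9 ± 14.9 and 21.1 ± 22.5 CPM, and Calcb was 2.06-fold higher in SPF mice with overlap.

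The SPF libraries were not of one kind. Xist was above 1000 CPM in SPF replicates 3 and 4 of every group, and in no GF library. The first and second SPF colonic neuronal libraries, which like the GF ones were below that level, gave 22.3 and 17.1 CPM of Grp, against 12.2, 0 and 1.48 CPM in GF colon. They gave 4.96 and 1.89 CPM of Nmu and 92.1 and 0.812 CPM of Cbln2. With a term for Xist, added after seeing the data, the fitted values were 2.20 for Grp, 7.23 for Nmu and 5.09 for Cbln2. Mitochondrially encoded genes took 0.423% to 0.598% of the counts of SPF and 0.867% to 1.06% of those of GF colonic neuronal libraries. Beyond the Xist term, the part of the Xist split in the members' values was not tested, nor was that of the mitochondrial share.

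In small intestine the neuronal libraries of SPF and GF mice differed in 0 members and 0 genes by edgeR (0%), with 0 members and 415 genes at an unadjusted p below 0.05, and DESeq2 called 10 genes and 0 members. All 6 tested members overlapped: Calcb stood at 10.0 ± 4.64 and 10.5 ± 10.4 CPM, and the largest ratio of means, 2.07-fold for Cbln2, was in the direction of GF mice. The test of whether the microbiota effect differed between segments called 0 members and 0 genes by edgeR (0%), with 2 members and 1069 genes at an unadjusted p below 0.05, and DESeq2 called 24 genes and 0 members. The 2 members were Nmu (log2 difference 7.69, SE 3.11, adjusted p = 0.77 in edgeR) and Cbln2 (5.81, SE 2.24, adjusted p = 0.77 in edgeR).

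Within the non-neuronal fraction 5 members passed the filter (Calb1 did not), among 18267 genes. Between SPF colon and small intestine 0 were called by edgeR, against 1.09% of all tested genes, with 2 at an unadjusted p below 0.05 and 0 called by DESeq2. These were Grp, at least 4.15-fold higher in colon without overlap (log2 fold change 6.65, SE 2.27, adjusted p = 0.14 in edgeR), and Calcb, 85 counts against 1 (log2 fold change 5.69, SE 2.28, adjusted p = 0.22 in edgeR). In GF mice 0 were called by edgeR, against 0.712% of all tested genes, with 2 at an unadjusted p below 0.05 and 0 called by DESeq2. These were Grp, 146 counts against 2 (log2 fold change 5.66, SE 2.40, adjusted p = 0.38 in edgeR), and Nmu, 97 counts against 3 without overlap (log2 fold change 4.70, SE 2.29, adjusted p = 0.45 in edgeR).

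Between SPF and GF non-neuronal libraries edgeR called 0 of 5 members in colon, where 0% of all genes were called, with 0 members and 445 genes at an unadjusted p below 0.05. In small intestine it called 0 of 5 members, against 0.00547% of all genes, which is 1 gene, with 0 members and 1987 genes at an unadjusted p below 0.05. DESeq2 called 0 members in both.

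Other genes used as markers of intrinsic sensory neurons, or linked to their electrical type, were counted from a list of 16 that held no member. In SPF small intestine 9 of 16 were called higher in neuronal nuclei and 1 lower, where 15.1% of all tested genes were called in either direction. The median log2 fold change was 3.50 against 0.03 over all tested genes. The 9 included Nefl, Nefm and Nefh, the neurofilament subunits (29.9, 34.4 and 20.5 CPM as neuronal means against 0.136, 1.04 and 0.378). They also included Scn11a, the sodium channel Nav1.9 (102 against 6.36 CPM), Ntrk3, the neurotrophin-3 receptor (249 against 45.2 CPM), Hcn2, a channel of the hyperpolarisation-activated current, Htr3b, a serotonin receptor subunit, and Slc17a6, a vesicular glutamate transporter. The count of genes called higher was 7 without the first neuronal library, set apart by its interstitial markers, and 7 without the first non-neuronal one, set apart by its pan-neuronal level.

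The 1 gene of the list called lower in neuronal nuclei was the stretch-gated channel gene Piezo2, at 17.0 against 121 CPM (edgeR log2 fold change -2.94, SE 0.53, adjusted p = 9.8e-05). Piezo2 was also lower in neuronal nuclei of SPF colon (31.5 against 149 CPM) and GF small intestine (9.48 against 144 CPM), and in GF colon it stood at 36.2 against 114 CPM (edgeR adjusted p = 0.098). Ntrk3 was the one gene of the list called higher in all 4 fraction comparisons. In SPF and GF colon it was the only one of 16 called higher. There 10.8% and 7.17% of all tested genes were called in either direction. In GF small intestine Nefl, Htr3a, Scn11a and Ntrk3 were called higher, 4 of 16, against 10.9% of all tested genes called in either direction. Avil, the actin-binding protein advillin of sensory neurons, stood at 9.81 to 24.2 CPM as neuronal means and was not called in any fraction comparison, and Dlx3 did not exceed 3.45 CPM in any neuronal library.

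Between segments, with SPF and GF neuronal libraries averaged, 2.38% of all tested genes were called. Of the 14 tested genes of that list Ntrk3 alone was called, higher in colon (521 and 462 CPM against 249 and 215 CPM; log2 fold change 1.03, SE 0.20, adjusted p = 0.0041 in edgeR). Without the first SPF small intestinal library, which stood apart by its interstitial markers, the value was 1.07 (edgeR adjusted p = 0.0057).

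The receptors of the peptides were read from a list of 11, of which 9 were tested between fractions. In SPF small intestine 1 of 9 was called, Cckar, a cholecystokinin receptor, at 30.0 CPM in neuronal against 0.404 CPM in non-neuronal nuclei (log2 fold change 6.01, SE 1.73, adjusted p = 0.014 in edgeR). In GF small intestine 1 of 9 was called, Grpr, the receptor of gastrin-releasing peptide, at 8.01 CPM against 0 counts. These shares lie below the 15.1% and near the 10.9% of all tested genes called. Without the first SPF small intestinal neuronal library Cckar missed the threshold (edgeR adjusted p = 0.051), and without the first non-neuronal one 3 receptors were called there, Cckar, Nmur2 and Calcrl. In the colonic comparisons edgeR called 0 of 9, with 0 at an unadjusted p below 0.05 in SPF and 1 in GF mice. Calcrl, the receptor subunit for CGRP and adrenomedullin, was called higher in colonic than in small intestinal neuronal nuclei with both microbiota states averaged (113 and 102 CPM against 51.2 and 30.6 CPM; log2 fold change 1.42, SE 0.34, adjusted p = 0.019 in edgeR). Without the first SPF small intestinal library it was 1.31 (edgeR adjusted p = 0.037).

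Noggin's pathway was read from 15 genes for its ligands, their receptors and other antagonists, of which 12 were tested. Bmpr1a, a receptor, and Grem1, the antagonist gremlin 1, were called lower in neuronal nuclei in SPF colon and in both small intestines, and Bmp4, a ligand, in SPF colon. That makes 3 of 12 in SPF colon and 2 of 12 in each small intestine. Of all tested genes, 10.8% were called in SPF colon, 15.1% in SPF and 10.9% in GF small intestine, in either direction. In GF colon edgeR called 0 of the 12, against 7.17% of all tested genes, with 4 at an unadjusted p below 0.05. Grem1 stood at 17.9 CPM in SPF small intestinal neuronal nuclei against 181 CPM in non-neuronal ones, and at 2.05 against 34.3 CPM in SPF colon. Grem1 was also lower in SPF colonic than in SPF small intestinal non-neuronal nuclei (log2 fold change -2.80, SE 0.62, adjusted p = 0.021 in edgeR).

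Among cerebellins and their synaptic partners, the closest relative of Cbln2, Cbln1, was called higher in neuronal nuclei of both small intestines, at 16.8 against 0.0791 CPM in SPF and 13.3 CPM against 0 counts in GF mice. Nrxn2, a neurexin, was called higher in SPF small intestine (121 against 8.82 CPM), and Grid1, a delta receptor, in GF small intestine (14.9 against 0.406 CPM). Cbln1 was lower in colonic than in small intestinal neuronal nuclei with SPF and GF averaged (1.71 and 0.285 CPM against 16.8 and 13.3 CPM; log2 fold change -4.35, SE 1.1, adjusted p = 0.030 in edgeR), and without the first SPF small intestinal library the value was -4.46 (edgeR adjusted p = 0.036). Of 8 close relatives of the members (Nms, Nmb, Gast, Adm, Adm2, Iapp, S100g and Pvalb), 2 were tested between fractions and edgeR called 0, with 1 at an unadjusted p below 0.05 in GF small intestine and 0 in the other 3 comparisons.

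How the members varied together was described over the 14 neuronal libraries by Pearson's r of log2(CPM + 1). The points share their libraries and depth, and values near 0 are set by single counts, so no test was made. Nmu and Cbln2 had the highest value of the 15 pairs, 0.70, followed by Nmu and Grp at 0.63 and Grp and Cbln2 at 0.54. Those 3 share SPF colonic replicate 4 as a high library. Calcb and Calb2 had 0.35, and Calb1 ranged from -0.29 to 0.12 against the other 5.

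The 3 genes most like each member by the same measure were taken from all filtered genes with a symbol, 18 in all, of which 8 were themselves at 0 in at least 1 neuronal library. For Nmu they were Apobec4 (0.86), Gm26982 (0.86) and Gm25517 (0.85), and for Calcb they were Gm15758 (0.95), Tcea1 (0.86) and Clgn (0.86). For Grp they were Mir1970 (0.91), Tomm7 (0.89) and Crip1 (0.87), and for Cbln2 they were Nek2 (0.88), Zfp961 (0.86) and Gm15511 (0.86). Gm47234 (0.85), Nudt11 (0.81) and Gm12735 (0.80) came closest to Calb1, and Kctd2 (0.87), Arpc5l (0.86) and A930040O22Rik (0.85) to Calb2. No member was among the closest 3 of another. Picking the highest 3 of all filtered genes over 14 libraries favours high values, and the level that unrelated genes reach was not tested.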

How the data were processed

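The authors deposited expected counts per gene, estimates that divide reads among the genes they match, in 1 table of 51912 genes and 28 libraries, and 7.478% of its values were not whole. The submitters' processing notes list STAR 2.5.2, RSEM 1.3.0, DESeq2 1.10.1 and GRCm38 without roles. Reads were 75-base single ends after 8 PCR cycles, per the labels' protocols. Expected counts were rounded here, and gene identifiers were matched to GENCODE M21 (51719 matched, the other 193 held 0.1022% of counts).

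Groups came from the labels. Totals of 2394517 to 7321922 counts set floors of 0.41 to 1.25 CPM. Folds against a group at 0 use the highest floor of 3 counts per library in that group. Fits used edgeR 4.0.16 in R 4.3.3 (TMM scaling, filterByExpr by group, robust quasi-likelihood F test, two-sided), with fractions and segment by fraction interactions on all 28 libraries and the rest within a fraction. The SE of a log2 fold change is its absolute value divided by √F. Of 36 pairs of libraries within groups, 0 were identical. The fits were tested on simulated data.

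Alternatives were relative log size factors, DESeq2 1.42.0, no low-count filter, a replicate block, a term for Xist above 10 CPM and, added after seeing the data, above 1000 CPM and the list genes without 2 small intestinal libraries that stood apart, and leaving out each library. The members and gene lists were chosen with earlier results of these data known. All members are named, with the list genes called in a comparison or needed as examples (a few of these are not reported here), and the 3 genes best correlated with each member of at least 5 CPM mean in a neuronal group. Log2 fold changes are printed for members with an unadjusted p below 0.05.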

Additional observations from a re-analysis of the deposited data

Results flagged for a closer look

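Among 22 groups of 4 libraries in which at least 1 library held more than 3 counts of a member, 6 had 1 library far from the other 3. Chance gives such a gap in about 1 of 20 groups of normally distributed values. That rate does not apply where the other 3 libraries are at 0, as for Nog and Calb2 here, since the gap is then the whole range. Another 6 groups with counts held at most 3 in any library and were not tested. In SPF colonic non-neuronal nuclei Nmu stood at 24.9 CPM in the second library, against 0.261 to 1.17 CPM in the others, and Cbln2 stood at 4.96 CPM in the third, against 0.252 to 0.866 CPM. In SPF small intestinal non-neuronal nuclei Nmu stood at 10.0 CPM in the third library, against 0 to 0.949 CPM. In the first library of that group Nog stood at 3.88 CPM and Calb2 at 2.27 CPM, with 0 counts of both in the other 3. In SPF colonic neuronal nuclei Grp stood at 66.0 CPM in replicate 4, against 17.1 to 22.3 CPM.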

How the results depend on the processing

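For 28 member fold changes (those with an unadjusted p below 0.05) 398 alternatives were run. In 391 the side of the threshold was kept without a turn of direction, in 7 a gene was newly called, and in 0 a call was lost or a direction turned. Only Grp and Calcb in SPF small intestine were called at the start, with 14 alternatives each, so a call could be lost in those alone. Most results that were kept belong to genes that stayed uncalled. The new calls were Calb2 in both small intestines (DESeq2, a term for Xist above 10 CPM and, in SPF mice, without the first non-neuronal library), and by DESeq2 Grp in GF small intestine and Nmu in GF colon. Members called between fractions in GF small intestine were thus 1 with that term and 2 with DESeq2, and in GF colon 1 with DESeq2. Without the first GF small intestinal neuronal library Calb1 had no counts left in GF small intestine, and without the second Nmu had none in GF neuronal nuclei. The fitted value was then 0, with no direction, for Calb1 between fractions in GF small intestine and for Nmu between GF neuronal segments. In neuronal libraries Calca, Cck and Nog lie at or near the floor, so differences below it were not detectable at this depth.

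Counts of all genes called moved more. DESeq2 called 2973 between fractions in GF colon and 3742 in GF small intestine. Between segments it called 429 in SPF and 355 in GF neuronal nuclei, 935 with both averaged, and 1083 in SPF and 542 in GF non-neuronal nuclei. Between SPF and GF mice it called 138 and 10 in colonic and small intestinal neuronal nuclei and 5 and 374 in non-neuronal ones. For interactions it called 811 (segment by fraction, SPF), 506 (GF) and 24 (segment by microbiota). Without the low-count filter the counts were 294 and 172 between segments in SPF and GF neuronal nuclei, 690 averaged, and 577 and 306 in non-neuronal nuclei. They were 76 and 1 for the microbiota in colonic and small intestinal neuronal nuclei and 161 in small intestinal non-neuronal ones, and 627, 294 and 22 for the 3 interactions. The Xist term at 10 CPM gave 1488 between fractions in GF small intestine, 42 between segments in GF non-neuronal nuclei, 304 and 110 for the segment by fraction interactions in SPF and GF mice, and, like that at 1000 CPM, 0 for the microbiota in small intestinal non-neuronal nuclei. The term at 10 CPM could not be fitted within neuronal libraries. The cause of these shifts was not tested.

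Whether replicate numbers pair the samples was not settled. Same-numbered libraries of different groups had correlations of -0.05 to 0.08 in their deviations from group means. Their median was 0.0158 in SPF and 0.0197 in GF mice, against -0.00885 and -0.0034 for libraries with different numbers. Xist was above 1000 CPM in SPF replicates 3 and 4 of every group, so the numbers were not arbitrary across the SPF groups. A replicate block gave 317 genes in SPF and 207 in GF mice between non-neuronal segments, and moved no other count of calls by over 1.5 times. It could not be fitted for SPF against GF, where numbers are nested in the microbiota state.

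Leaving out 1 library at a time gave 773 to 1181 genes between fractions in GF colon and 1454 to 2173 in GF small intestine. Between segments it gave 57 to 118 (SPF neuronal), 24 to 57 (GF neuronal), 255 to 446 (averaged), 79 to 292 (SPF non-neuronal) and 44 to 163 (GF non-neuronal). For the microbiota it gave 0 to 5 and 0 to 1 in colonic and small intestinal neuronal nuclei and 0 to 38 in small intestinal non-neuronal ones, and for the segment by fraction interactions 107 to 484 in SPF and 16 to 116 in GF mice.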
